A study of Mus musculus with 24 samples.

Results

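Chromatin at 8 genes of the B lineage was followed in mouse haematopoietic stem and progenitor cells that had or lacked Utx, the H3K27 demethylase whose gene is Kdm6a. The genes were Ebf1, Pax5, Pou2af1, Bank1, Blnk, Blk, Cd22 and Il7r, 8 of 21887 protein-coding genes in the annotation. Every peak that overlapped the RefSeq span of a gene, or 50 kb on either side of it, was assigned to that gene, and peaks were merged within each assay. The genes had been picked because H3K4me1 islands appeared at B cell genes in Utx knockout cells, so for that mark their values are a description and carry no test.

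B lymphocytes arise from progenitors in the bone marrow. The interleukin 7 receptor, whose alpha chain is encoded by Il7r, carries a survival and growth signal into early progenitors. Ebf1 and Pax5 encode transcription factors that specify the B lineage and commit cells to it, and Pou2af1 encodes a coactivator of octamer-binding factors in B cells. The remaining genes belong to signalling from the B cell receptor: Blk encodes a Src family kinase, Blnk and Bank1 encode adaptor or scaffold proteins, and Cd22 encodes an inhibitory coreceptor. H3K4me1 is a histone mark found at enhancers. PU.1 is an ETS family factor required for myeloid and B lymphoid development.

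All cells came from C57BL/6 bone marrow and were lineage-negative, a fraction left by a lineage depletion kit. H3K4me1 was mapped by ChIP-seq in 2 Utx WT and 2 Utx KO libraries, and PU.1 in 3 Utx WT and 3 Utx KO libraries. ATAC-seq, which marks open chromatin, was done in cells that all carried Cas9. In the Smarca4 set, Utx WT and Utx KO cells each received an empty vector or guide RNA (gRNA) number 2 against Smarca4, the gene of the remodelling ATPase Brg1, with 2 libraries a group. In the Chd4 set, Utx WT cells received an empty vector or gRNA number 1 against Chd4, a remodelling enzyme of the NuRD complex, again with 2 libraries a group. A protocol attached to the Chd4 set but worded for editing of Brg1 describes 7 days in semi-solid medium, 5 days in liquid culture and ATAC-seq 6 days after transduction. The sources used here name no age of the mice and no driver of the Utx deletion, and do not say whether replicates were separate animals or cultures.

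H3K4me1 lists held 43706 to 54654 islands over 180 to 284 Mb. PU.1 lists held 137850 to 171535 islands over 114 to 128 Mb, and ATAC lists 24833 to 50927 peaks over 13.2 to 34.3 Mb. A deletion or edit cannot be read from a peak list: within 50 kb of Kdm6a 2 of 4 H3K4me1 regions were lost in Utx KO, within 50 kb of Smarca4 1 of 10 ATAC regions was lost with its gRNA in Utx WT cells, and within 50 kb of Chd4 4 of 19 with its gRNA. Marker windows of the stem and progenitor, monocyte, granulocyte, mast cell and B cell lists all held H3K4me1 and PU.1 islands, so the lists alone did not separate these cell types.

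The 8 windows differed in size and in neighbours (GRCm38, the assembly of mm10). Ebf1 (chromosome 11, 44618100 to 45008096) and Bank1 (chromosome 3, 136053363 to 136326141) had no other protein-coding gene within 50 kb. Pax5 (chromosome 4, 44524748 to 44710694) shared its window with Zcchc7, Blk (chromosome 14, 63372837 to 63417187) with Fam167a, and Il7r (chromosome 15, 9506159 to 9529941) with Capsl and Spef2. Blnk (chromosome 19, 40928927 to 40994221) lay beside Zfp518a and Dntt, and Pou2af1 (chromosome 9, 51213690 to 51240079) beside Gm32742, Colca2 and 1810046K07Rik. Cd22 (chromosome 7, 30865404 to 30880342) lay beside Ffar1, Ffar2, Ffar3, Mag and Hamp2. A peak in such a window may belong to the neighbour. The annotation used gave no exons.

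Promoters of 7 of the 8 genes matched the RefSeq promoter table (GRCm38.p6). Printed here are the 250 bases upstream of 4 start sites where the peak lists changed or were densest. At Pou2af1 H3K4me1 and PU.1 islands appeared at the start site in Utx KO. An ATAC peak at the start site was lost in Utx KO at Blnk, and with the gRNA against Chd4 at Il7r. The strongest PU.1 island of Bank1 covers its start site. Each sequence runs 5′ to 3′ on the strand of its gene, and capitals mark matches to any of 5 motifs searched on both strands.
Pou2af1, plus strand, chr9:51213440-51213689: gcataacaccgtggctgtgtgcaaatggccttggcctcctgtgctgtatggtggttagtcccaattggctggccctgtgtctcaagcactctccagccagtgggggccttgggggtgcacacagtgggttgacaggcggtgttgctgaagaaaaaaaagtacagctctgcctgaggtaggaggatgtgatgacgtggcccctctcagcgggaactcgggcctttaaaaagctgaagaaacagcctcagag
Blnk, minus strand, chr19:40994222-40994471: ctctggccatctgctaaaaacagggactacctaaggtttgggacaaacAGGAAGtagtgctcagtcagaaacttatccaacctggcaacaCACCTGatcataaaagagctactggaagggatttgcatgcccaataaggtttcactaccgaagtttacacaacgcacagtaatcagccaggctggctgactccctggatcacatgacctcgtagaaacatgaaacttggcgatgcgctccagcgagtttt
Il7r, minus strand, chr15:9529877-9530126: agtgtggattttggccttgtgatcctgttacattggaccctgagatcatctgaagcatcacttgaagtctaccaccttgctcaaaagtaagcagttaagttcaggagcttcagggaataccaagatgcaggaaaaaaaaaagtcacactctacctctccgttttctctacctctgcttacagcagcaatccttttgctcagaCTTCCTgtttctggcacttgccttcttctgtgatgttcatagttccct
Bank1, minus strand, chr3:136326067-136326316: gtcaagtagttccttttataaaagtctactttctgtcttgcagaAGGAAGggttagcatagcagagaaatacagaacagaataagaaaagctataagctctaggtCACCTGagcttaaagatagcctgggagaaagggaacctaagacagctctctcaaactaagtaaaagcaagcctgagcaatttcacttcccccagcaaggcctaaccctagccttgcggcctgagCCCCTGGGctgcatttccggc

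The motifs were an 8-base PU.1 site GAGGAAGT, the ETS core AGGAAG (6 bases, contained in the PU.1 site), the EBF palindrome CCCNNGGG, the E-box CAGGTG and the Runx site TGTGGT. Over 32851 RefSeq promoters of the same length they occurred in 2.44%, 29.5%, 11.8%, 17.2% and 14.0% of sequences. The Bank1 promoter held an ETS core, an E-box and an EBF palindrome, that of Blnk an ETS core and an E-box, and that of Il7r an ETS core. Of the other promoters, Cd22 held an EBF palindrome and an E-box, the first Ebf1 start site a Runx site, and Pou2af1, Pax5 and the second Ebf1 start site none of the 5. No promoter of these genes held the PU.1 site. A match is a run of letters and was not tested as a binding site.

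Before any comparison, the share of each window under islands in Utx WT cells set the genes apart. For H3K4me1 it was highest at Cd22, with 46.6% and 58.1% of the window covered in the 2 libraries, followed without overlap by Blnk with 29.4% and 42.5%. Il7r (8.07% and 22.2%), Pou2af1 (10.8% and 10.8%) and Blk (7.89% and 11.8%) overlapped each other. Pax5 (6.15% and 7.97%), Bank1 (4.67% and 7.78%) and Ebf1 (3.999% and 4.82%) were lowest, and neighbours in that order overlapped. PU.1 gave nearly the same order, from Cd22 with 17.4% to 21.2% and Blnk with 14.1% to 14.6% down to Ebf1 with 2.81% to 3.38% in 3 libraries each. ATAC peaks of the Smarca4 set with empty vector covered 2.96% and 3.11% of the Blnk window, 2.19% and 2.21% of the Cd22 window and 1.68% and 2.33% of the Il7r window. The other 5 windows were under ATAC peaks for 0.255% to 0.718% of their length.

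H3K4me1 was higher around all 8 genes in Utx KO cells. The signal of a window is the sum of the whole numbers that the lists give for its islands, scaled to 1000000 over the whole list and called scaled signal. It is given below for WT replicates 1 and 2 and then KO replicates 1 and 2. Around the receptor gene Il7r it was 35.8 and 74.7 in WT and 108 and 147 in KO libraries. Around Ebf1 it was 71.4 and 61.8 in WT and 114 and 236 in KO, and around Pax5 82.7 and 75.2 against 109 and 181. The coactivator gene Pou2af1 had 56.6 and 36.4 against 73.5 and 123. At these 4 genes KO replicate 2 was the highest library and no WT library reached a KO library. Among the signalling genes, Bank1 had 68.8 and 84.6 in WT and 225 and 178 in KO. Blnk had 215 and 217 against 255 and 346, and Blk 54.7 and 52.5 against 81.5 and 115. Of the Blnk values, a region in the neighbour Dntt (41005601 to 41041199) held 96.3 and 95.1 in WT and 119 and 168 in KO. Cd22 had 285 and 278 against 447 and 382. Bank1 and Cd22 were thus highest in KO replicate 1, unlike the other 6 genes. Neighbours held part of the signal in other windows too. In the Cd22 window a region at Ffar2 (30809201 to 30833199), which begins outside the window, held 98.1 and 102 in WT and 147 and 110 in KO. A region at Capsl in the Il7r window held 16.5 and 18.9 against 21.4 and 46.9. A region at Gm32742 in the Pou2af1 window held 14.9 and 12.5 against 22.7 and 38.8.

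The ratio of KO to WT means was 2.63 at Ebf1 and at Bank1, 2.31 at Il7r, 2.11 at Pou2af1, 1.84 at Pax5 and at Blk, 1.47 at Cd22 and 1.39 at Blnk. KO lay above WT without overlap at 8 of 8 genes in signal, where 32.8% of 18461 gene windows did, and at 6 of 8 in covered length, where 6.70% did. The exceptions in covered length were Blnk, with 48.6 and 70.2 kb in WT and 57.6 and 76.2 kb in KO, and Il7r, with 9.995 and 27.5 kb against 24.8 and 41.8 kb. On the log2 scale the median difference was 0.97 in signal and 0.80 in covered length over the 8 genes, against 0.07 and -0.17 over all windows. Covered length at Ebf1 rested on KO replicate 2, with 75.8 kb against 30.0 kb in KO replicate 1 and 19.6 and 23.6 kb in WT.

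**Figure D1:**
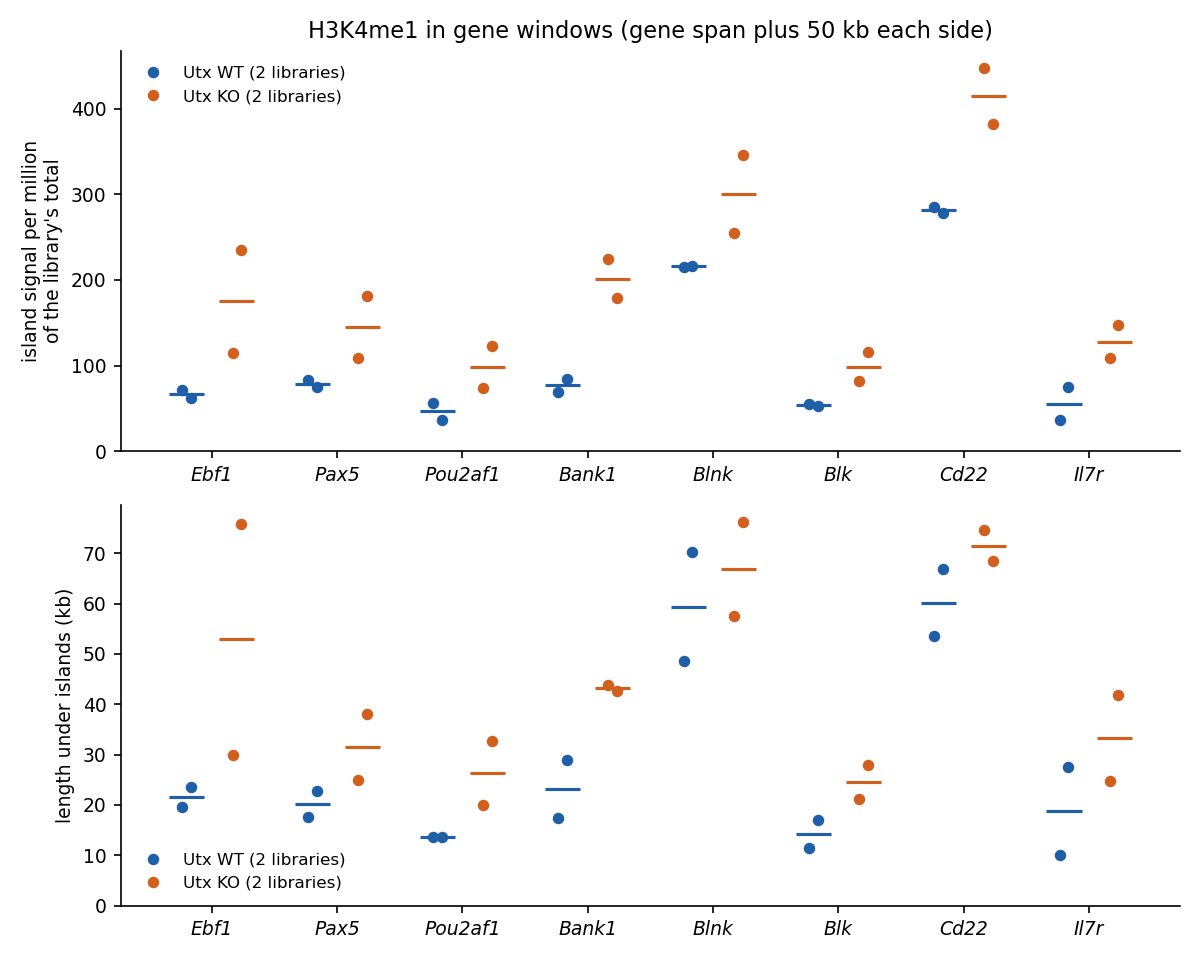
H3K4me1 around the 8 genes: scaled island signal, per 1000000 of the total of each list, (upper panel) and length under islands in kb (lower panel). Points are single libraries, 2 Utx WT and 2 Utx KO, and lines are group means. KO points lie above WT points at every gene in the upper panel, and points of the groups overlap at Blnk and Il7r in the lower panel.

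A region was called gained when every KO library and no WT library had an island there, lost when only the WT libraries had one, and kept when each library did. The 8 windows held 67 merged H3K4me1 regions, of which 12 were gained and 1 was lost (percent called over all regions, 2.15% gained and 10.9% lost), and 31 were kept (45.9% over all). Gained regions lay at 7 of 8 genes, where 9.82% of gene windows with a region had one. Among the upper 50% of each list 7 regions were gained. Because the genes were picked on this contrast, nothing is read from these shares. Pou2af1 gained 3 of 10 regions, Ebf1 2 of 9, Bank1 2 of 11 and Il7r 2 of 9, while Blnk (1 of 8), Blk (1 of 6) and Cd22 (1 of 8) gained 1 each. Pax5 gained 0 of 6, and 4 of its regions were kept. Of the 12 gained regions 10 overlapped a gene span, out of 37 regions there, and 2 of 30 lay in the flanks. Just beyond the window, 50 to 100 kb from the spans, 3 of 41 regions were gained and 6 lost.

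At Pou2af1 the gained islands formed a run from the promoter into the gene. The first, at 51208801 to 51214799, spans the start site, with a scaled signal of 15.5 and 17.4 in the KO libraries. The others, at 51215401 to 51219999 and 51220601 to 51227199, had 13.3 and 11.4, and 14.7 and 21.2. No WT library had an island in any of them, and within 1 kb of the start site 2 of 2 KO and 0 of 2 WT libraries had one. The start sites of the other 6 matched genes had an H3K4me1 island within 1 kb in every library, except 1 WT library at Il7r.

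At Ebf1 both gained islands lay far inside the gene, at 44760001 to 44766199 and 44943601 to 44952799, centred 143 and 328 kb downstream of a start site. Their scaled signal was 8.97 and 17.0, and 12.7 and 26.8. In Bank1 the gained islands lay at 136099401 to 136102399 (12.8 and 5.56) and 136299801 to 136304399 (17.6 and 14.8). The lost island of Bank1, at 136060001 to 136063199, had 6.35 and 5.42 in the WT libraries. Single islands were gained inside Blnk (40987801 to 40991999), Blk (63387601 to 63391999) and Cd22 (30872801 to 30874999). Those of Il7r lay upstream of the gene, at 9548001 to 9550599 and, within Spef2, at 9576401 to 9578799. Gained islands were of low to middle rank: in KO replicate 1 the strongest stood at percentile 61.4 of its list (Bank1) and the weakest at percentile 7.76 (Il7r). Their median width was 4499 bp, against 3399 bp for all 1262 gained regions and 9399 bp for the 31 kept regions here.

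**Figure D2:**
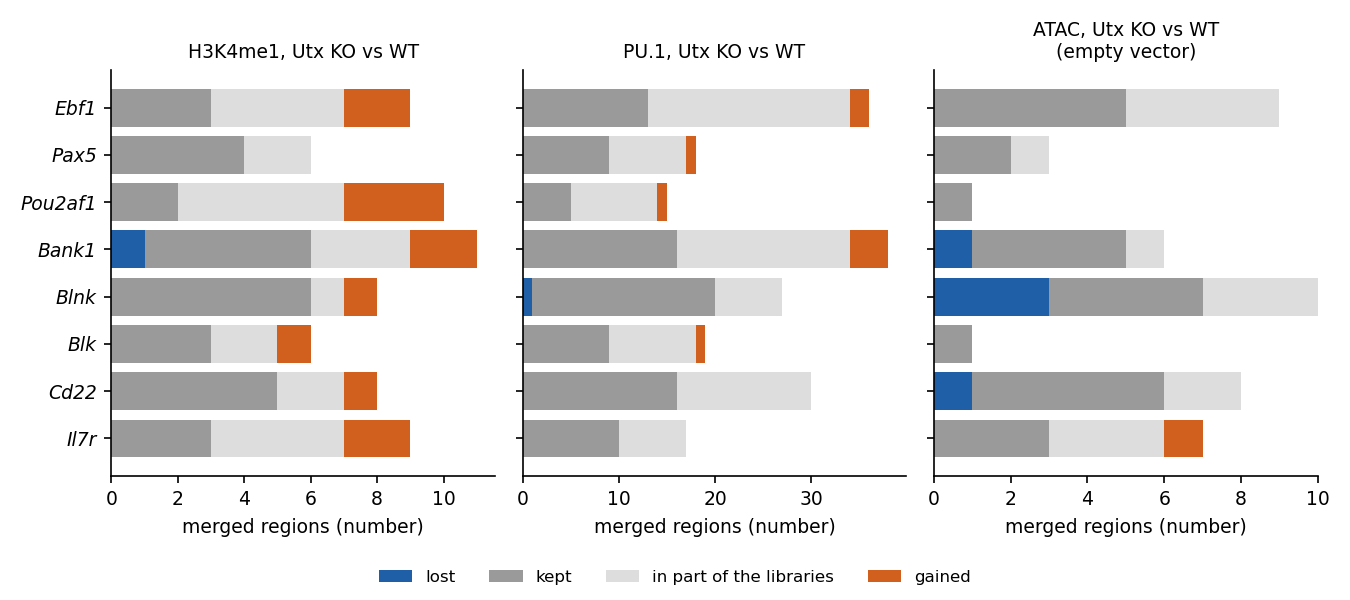
Merged regions in the 8 windows by class: lost (blue), kept in every library (dark grey), held by part of the libraries (light grey) and gained (orange) in Utx KO against WT. Bars are numbers of regions per gene for H3K4me1, PU.1 and ATAC with empty vector. Orange segments are present at 7 genes for H3K4me1 and at 5 for PU.1, and the longest blue segment is that of Blnk for ATAC.

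Other gene lists gave the following values in the same contrast. Of 39 other B lineage genes 8 had a gained H3K4me1 region, in all 8 of 327 regions (2.45%), and 26 regions were lost. Among them the zinc finger factor gene Ikzf3 gained 2 of 11, and Bach2, a repressor active in B cells, lost 6 of 30. One of these 8 gained regions is the Blnk region itself, which also falls in the window of Dntt. Of 164 regions at 20 T lineage genes 2 were gained and 18 lost. KO signal lay above WT without overlap at 24 of 39 other B lineage windows and below it at 7, and above at 7 and below at 4 of 19 T lineage windows with a value (32.8% of all windows above). The median log2 differences in signal were 0.30 and 0.17. In covered length 3 other B lineage windows were higher and 5 lower (6.70% of all windows higher). There 1 T lineage window was higher and 6 lower, and the medians were -0.08 and -0.19. The shares of all windows that lay lower are not given here, so nothing is read from the counts of lower windows, in signal or in length.

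Mature B cells express most of the 8 genes, and their markers were therefore measured. The 5 B cell markers used here (Cd79a, Cd79b, Ms4a1, Cr2 and Cd74) had 0 gained and 1 lost of 36 H3K4me1 regions. The summed scaled signal of their windows was 833 and 799 in WT and 805 and 907 in KO, so the sums overlapped. Single markers did not all do so: 3 of 5 were higher and 1 lower without overlap (32.8% of all windows higher), with a median log2 difference of 0.36. In covered length 0 were higher and 0 lower (6.70% of all windows higher). In H3K4me1, 0 of 5 markers lacked an island in any library. Among the other marker lists, the summed scaled signal of stem and progenitor genes was 2302 and 2166 in WT and 1909 and 1929.9 in KO, below WT without overlap. Erythroid and mast cell lists also lay lower without overlap, granulocyte and T and NK cell lists higher (1663 and 1587 against 1730.05 and 1829 for granulocytes), and the monocyte groups overlapped. Fewer cells of a type and less signal per cell cannot be told apart in bulk libraries, and the part of cell composition in the H3K4me1 values was not tested.

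PU.1 was measured in other libraries than H3K4me1, but its changes at Bank1, Ebf1 and Blnk were known when the genes were picked and are no independent support. At the 8 genes it did not move in one direction. Over all windows, 980 were higher (4.96%) and 830 lower (4.20%) of 19777 tested, by limma on log2 of the scaled covered length plus 200 bp, with a Benjamini-Hochberg adjusted p under 0.05. Of the 8 genes 1 was called, Bank1, which was higher in KO. PU.1 islands covered 19.0, 21.6 and 19.98 kb of the Bank1 window in the WT libraries and 25.6, 22.0 and 24.8 kb in the KO libraries. In covered length (10.7% of windows higher and 11.7% lower without overlap) every KO library was above every WT library, with KO replicate 2 the nearest to them. The log2 difference was 0.27 (SE 0.07, limma adjusted p = 0.0330). Its scaled PU.1 signal was 183, 191 and 189.8 in WT and 229, 227 and 227 in KO. The call did not hold when any 1 of the 6 libraries was left out (log2 difference 0.24 to 0.30, limma adjusted p = 0.0626 to 0.104), without scaling (0.25, limma adjusted p = 0.191) or within the gene span alone (0.29, limma adjusted p = 0.0718).

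The other 7 genes did not pass. Blnk had 23.4, 24.2 and 23.8 kb under PU.1 islands in WT and 22.6, 17.4 and 19.98 kb in KO. No KO library reached a WT library there, yet the log2 difference of -0.24 (SE 0.08) had a limma adjusted p of 0.0802. Pou2af1 had 7.19, 9.39 and 7.19 kb in WT and 6.59, 6.47 and 6.19 kb in KO, also without overlap (log2 difference -0.27, SE 0.14, limma adjusted p = 0.243). Blk and Cd22 had log2 differences of -0.27 and -0.19 (limma adjusted p = 0.154 and 0.171), with overlapping groups. Ebf1, Pax5 and Il7r lay at 0.11, 0.14 and 0.06 (limma adjusted p = 0.522, 0.514 and 0.824). Blnk, Blk and Cd22 had an unadjusted p under 0.05, as did 5124 of all windows. In signal, KO lay above WT without overlap at Bank1 (26.4% of windows) and below it at Blnk and Blk (19.6% of windows). In covered length before scaling, the median log2 difference of the 8 genes was -0.09, against 0.00 over all windows.

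**Figure D3:**
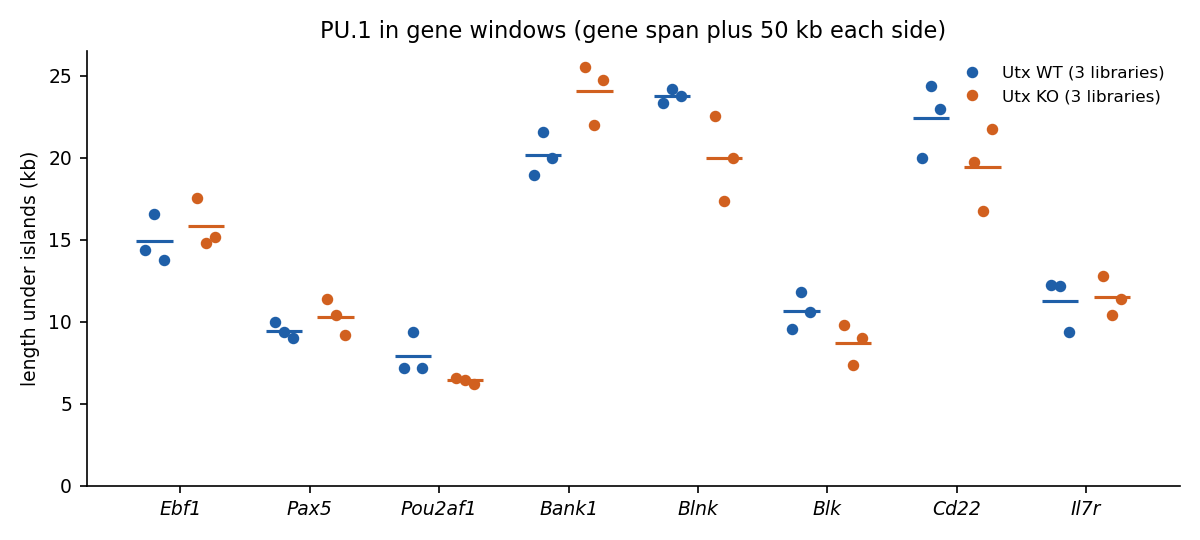
Length under PU.1 islands (kb) in the windows of the 8 genes. Points are single libraries, 3 Utx WT and 3 Utx KO, and lines are group means. The KO points lie above the WT points at Bank1 and below them at Blnk and Pou2af1, and the groups overlap at the other 5 genes.

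Single PU.1 islands did appear in KO cells. Of 200 merged PU.1 regions 9 were gained, 1 was lost and 97 were kept (percent called over all regions, 2.87% gained, 1.16% lost and 50.0% kept). Gains lay at 5 of 8 genes, where 30.7% of gene windows had one: Bank1 gained 4 of 38, Ebf1 2 of 36, and Pax5, Pou2af1 and Blk 1 each. That share was not matched for the number of regions in a window. KO replicates 1 and 3 had the longest lists, with 171535 and 161605 islands against 137850 to 143628 in WT. The lost island, inside Blnk at 40964401 to 40965399, had a scaled signal of 1.62, 2.71 and 1.51 in WT (16.9% of gene windows had a lost region). Fewer gains were found under other settings, 4 when an overlap had to cover 50% of a region and 5 when lists were cut to equal length. Other B lineage genes had 11 gained and 12 lost of 989 regions, and T lineage genes 4 and 10 of 379. The gain at Pou2af1 covers its start site, at 51212801 to 51213799, and overlaps the promoter printed above. Its scaled signal was 1.80, 3.24 and 1.34 in the 3 KO libraries, a small part of the 44.4, 45.9 and 42.2 in the whole window. In 2 of 3 WT libraries another PU.1 island lay within 1 kb of that start site.

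Several PU.1 gains fell inside H3K4me1 gains. Of the 12 gained H3K4me1 regions 4 held a PU.1 region that was gained in KO (13.6% of all 1262 gained regions did), against 2 of 31 kept regions (3.55% of all kept). The 4 lay in Ebf1 (PU.1 at 44950401 to 44950999), at the start site of Pou2af1, in Bank1 (136099801 to 136101399) and in Blk (63388601 to 63390199). At the Blk site the PU.1 scaled signal was 2.92, 3.98 and 1.91 in KO libraries, and at the Ebf1 site 3.10, 3.10 and 2.08. No WT library of either assay had an island there. PU.1 islands were found in every KO library at 8 of the 12 gained H3K4me1 regions (70.9% of all gained) and in every WT library at 5 (51.2%). The other gained islands of Pou2af1 held no PU.1 island in any library. The H3K4me1 gains, and PU.1 changes at Bank1, Ebf1 and Blnk, were known when the genes were picked. Nothing is therefore read from the shares in this paragraph.

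**Figure D4:**
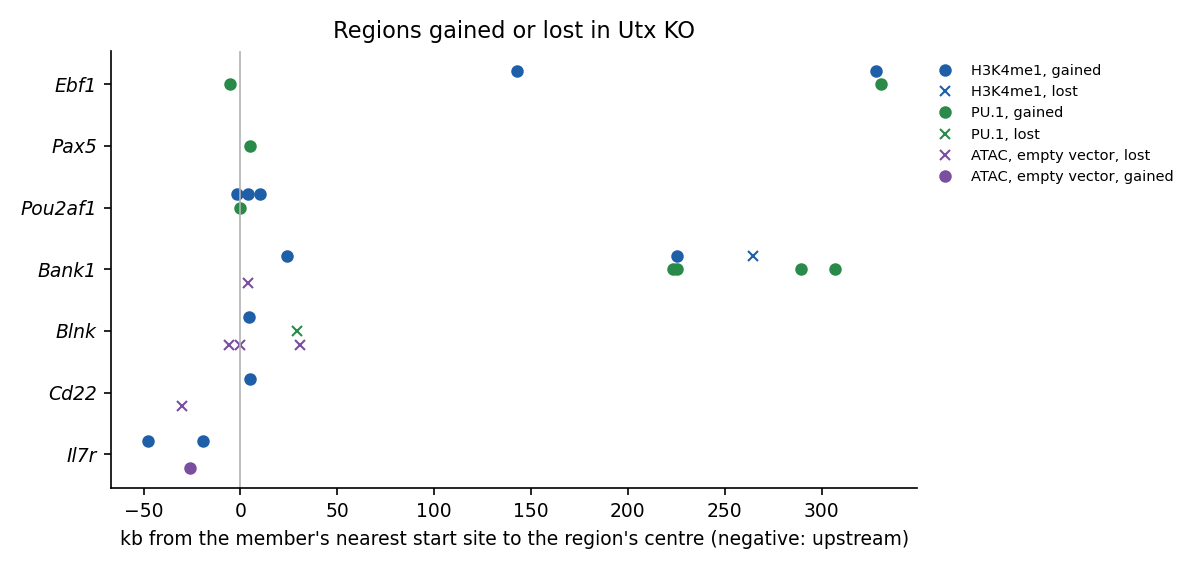
Position of gained (circles) and lost (crosses) regions of Utx KO cells around 7 genes, as the distance in kb from the nearest start site of the gene to the centre of the region, with negative values upstream. Blk is left out because no start site was matched. H3K4me1 and PU.1 gains coincide at the start site of Pou2af1 and deep inside Ebf1 and Bank1.

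Few of the gained H3K4me1 regions lay in chromatin that ATAC-seq showed as open. Of the 12 gained regions 1, inside Ebf1, held an ATAC peak in any of the 12 libraries, against 36.9% of all gained regions. Of the 31 kept regions 20 did, against 85.7% of all kept. The ATAC cells received a vector, which the labels of the ChIP cells do not mention, so assay and handling of the cells cannot be told apart here.

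With empty vector, the share of ATAC regions around the 8 genes that was lost in Utx KO (11.1%) was near that over all regions. Of 45 merged regions 5 were lost and 1 was gained (percent called over all regions, 11.3% lost and 1.93% gained). With lists of equal length 0 regions were lost and 4 gained. Blnk accounted for 3 of the 5 losses. One of them, at 40994018 to 40994443, covers the Blnk start site and measured 347 and 248 bp in the WT libraries. In the Chd4 set 0 of 2 Utx WT libraries with empty vector had an ATAC peak within 1 kb of that start site. The Utx WT cells with empty vector thus differed between the 2 ATAC sets there. The other Blnk losses lay inside the gene (40963062 to 40963377) and upstream of it (40999753 to 41000326). The remaining losses were inside Bank1 (136322042 to 136322379) and, in the Cd22 window, inside Mag (30908995 to 30909270). The gain lay upstream of Il7r, at 9555950 to 9556308. Other B lineage genes lost 43 and gained 3 of 391 regions, and 2 of the 43 were the Blnk regions counted again at Dntt.

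Blnk was also the only gene of the 8 called on covered length, where limma called 548 windows lower (3.04%) and 318 higher (1.76%) of 18041. Its ATAC peaks covered 4.90 and 5.13 kb in Utx WT libraries with empty vector and 2.82 and 2.87 kb in Utx KO. After scaling to equal totals the log2 difference was -0.46 (SE 0.09, limma adjusted p = 0.0321). The genes were chosen with earlier results of these data known, so this call is no independent support. The call did not hold when any 1 of the 4 libraries was left out (log2 difference -0.51 to -0.41, limma adjusted p = 0.0996 to 0.181) or within the gene span alone (log2 difference -1.39, limma adjusted p = 0.131). Without scaling the log2 difference was -0.78. Pax5 had 1.69 and 1.48 kb in WT and 1.86 and 1.81 kb in KO, without overlap, but did not pass (log2 difference 0.49, SE 0.15, limma adjusted p = 0.0957). Most of this length was 1 peak in Zcchc7 (44755791 to 44757213), of 1082 and 1136 bp in WT and 1177 and 1093 bp in KO. At that peak the groups overlapped, and no ATAC library had a peak within 1 kb of the Pax5 start site. The other 6 genes had limma adjusted p from 0.621 to 0.987. Before scaling, covered length was lower without overlap at 5 genes (67.7% of windows) and higher at Pax5 (4.5% of windows), and the KO lists were shorter, with 40477 and 41024 peaks against 50845 and 50927.

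The gRNA against Smarca4 asks whether open chromatin at these genes depends on Brg1, and it shares the empty-vector libraries with the Utx comparison above. In Utx WT cells 2 of 44 regions were lost and 1 was gained (percent called over all regions, 5.96% lost and 0.866% gained). The losses were the same Mag site in the Cd22 window, measured against the same 2 reference libraries, and a site in Capsl near Il7r (9463449 to 9464101). The gain, at 44612351 to 44612897 upstream of Ebf1, measured 225 and 463 bp and overlaps the PU.1 region gained in Utx KO at 44612601 to 44613199. No gene passed limma, where 0 of 18041 windows did (0.00%). With an unadjusted p under 0.05 there were 2 of the 8 genes, Blnk and Cd22, and 2068 windows. Cd22 had 2.52 and 2.54 kb with empty vector and 1.30 and 2.09 kb with the gRNA (log2 difference -0.45, SE 0.17, limma adjusted p = 0.375), and Blnk had a log2 difference of -0.23 (SE 0.09, limma adjusted p = 0.407). The other 6 genes lay between -0.28 (Blk) and 0.06 (Bank1), with limma adjusted p from 0.722 to 0.935.

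The gRNA against Smarca4 was also compared with empty vector in Utx KO cells. Of 34 regions around the 8 genes 2 were lost and 0 gained (percent called over all regions, 8.43% lost and 0.277% gained). Both losses lay around Il7r, at 9469706 to 9470111 and 9555950 to 9556308, and other settings placed losses at up to 4 genes. ATAC peaks covered 1.87 and 2.82 kb of the Il7r window with empty vector and 1.46 and 0.658 kb with the gRNA. The log2 difference of -0.87 (SE 0.27) did not pass (limma adjusted p = 0.198), and gRNA replicate 2, the lowest library, had the shortest list of the set with 29930 peaks. No gene passed limma, where 20 windows were lower (0.111%) and 1 higher (0.00554%), and Il7r alone had an unadjusted p under 0.05 among the 8 genes. The other 7 had log2 differences from -0.39 (Pou2af1) to 0.15 (Bank1), with limma adjusted p from 0.384 to 0.981. In covered length before scaling 8 of 8 genes were lower without overlap, where 45.5% of windows were, and in Utx WT cells 5 of 8, where 40.3% were. The effect of the gRNA was not shown to differ between genotypes: in the interaction 0 of 18041 windows passed limma (0.00%), and 1585 windows and Blnk alone of the 8 genes had an unadjusted p under 0.05. At Il7r the interaction was -0.71 (SE 0.38, limma adjusted p = 0.619).

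With the gRNA against Chd4, 6 of 40 regions were lost and 0 gained (percent called over all regions, 13.7% lost and 0.1% gained). With lists of equal length 2 were lost and 3 gained. Il7r lost 3 of 9 regions, among them the peak over its start site (9529651 to 9530244), which measured 224 and 326 bp in the empty-vector libraries. Within 1 kb of that start site 2 of 2 empty-vector and 0 of 2 gRNA libraries had a peak. Blnk lost 2 of 8 regions and the Blk window 1 of 4, the latter inside Fam167a. Covered length was lower without overlap at 6 of the 7 genes with a peak, where 84.7% of windows were: the gRNA lists held 34429 and 24833 peaks and the empty-vector lists 48687 and 41480. Il7r had 2.70 and 2.44 kb with empty vector and 1.35 and 0.935 kb with the gRNA, and Blk had 1.82 and 1.41 kb against 0.610 and 0.423 kb. After scaling no gene passed limma (adjusted p from 0.261 to 0.691), where 0 of 17037 windows did (0.00%). On simulated data 0% of changes of log2 size 1 were recovered in this comparison, so the test could not decide on differences of the sizes seen here. An unadjusted p under 0.05 was found for 2918 windows, among them Pax5, higher at a log2 difference of 0.63, and Blk and Cd22, lower at -0.73 and -0.56. Ebf1 and Il7r had -0.39 and -0.38, and Bank1 and Blnk 0.18 and 0.27. Pax5 kept 2 of 2 regions, with 1.47 and 1.55 kb against 1.57 and 1.35 kb, and Pou2af1 had no ATAC peak in this set. Most of the Pax5 length was again the Zcchc7 peak, with 1235 and 1312 bp against 1246 and 1094 bp.

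**Figure D5:**
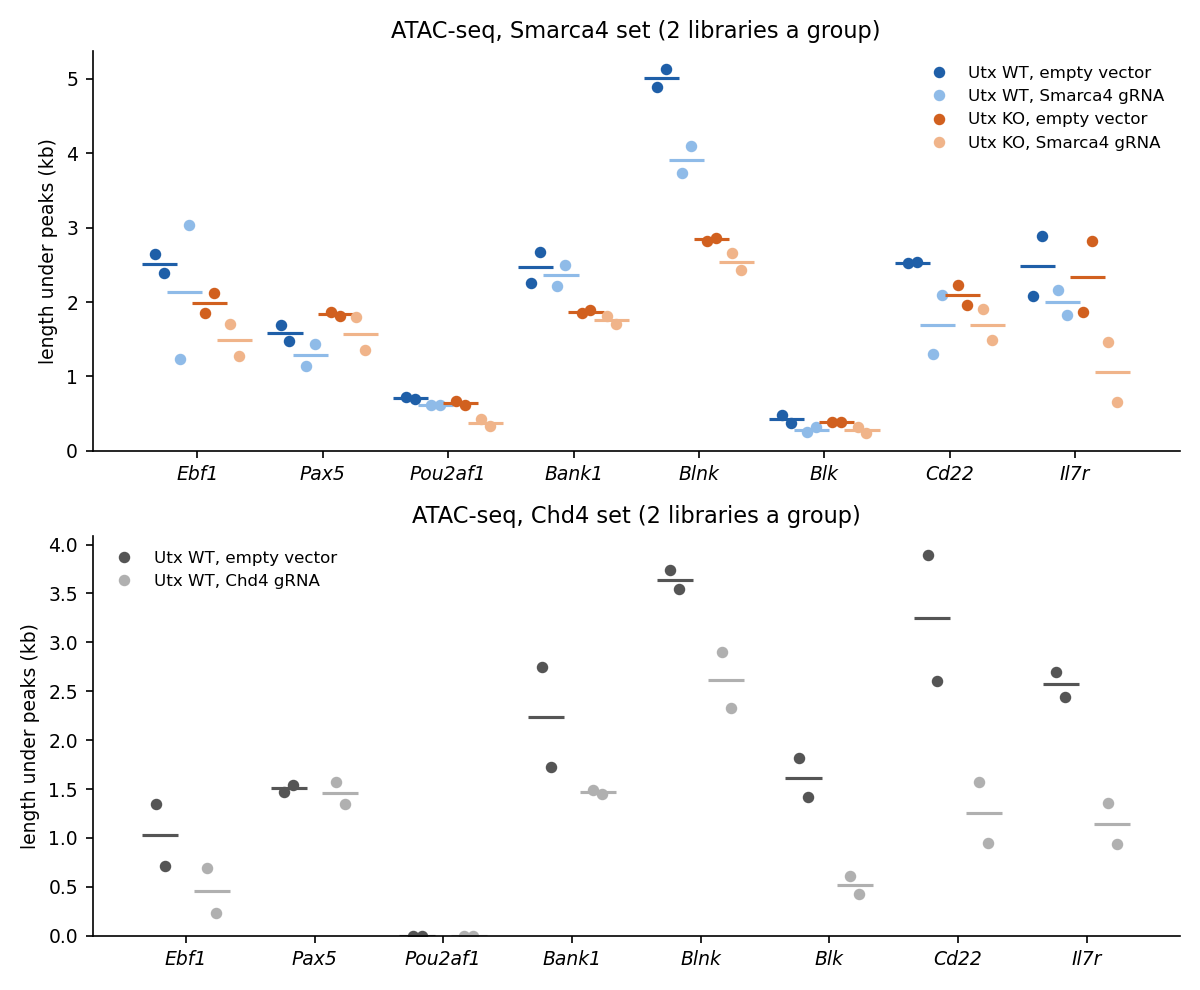
Length under ATAC peaks (kb) in the windows of the 8 genes, not scaled, in the Smarca4 set (upper panel) and the Chd4 set (lower panel). Points are single libraries, 2 a group, and lines are group means. In the upper panel both Utx KO groups lie below both Utx WT groups at Blnk, and in the lower panel the gRNA points lie below the empty-vector points at 6 genes.

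One site near Il7r, at 9555950 to 9556308, was called in 3 comparisons. In the Smarca4 set it was a peak of 240 and 346 bp in Utx KO cells with empty vector and absent from the other 3 groups. In the Chd4 set it was a peak of 213 and 213 bp in Utx WT cells with empty vector and absent with the gRNA. The Utx WT cells with empty vector therefore differed between the 2 ATAC sets at this site. No H3K4me1 or PU.1 library had an island there, and the calls in the Smarca4 set share the same 2 Utx KO libraries.

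The windows most alike in scaled ATAC length over the 8 libraries of the Smarca4 set were sought for 3 genes among genes more than 1 Mb away or on another chromosome. For Ebf1 this was Mapt (Pearson r 0.91), for Pax5 Eva1b (0.99) and for Il7r Tmem182 (0.98). The 8 libraries share groups and list lengths. An r over 0.8 was found for 57 of 18030 genes with Ebf1, 260 of 18029 with Il7r and 1820 of 18004 with Pax5.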

How the data were processed

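ChIP-seq and ATAC-seq peak lists of 22 of 24 samples were used; the 2 input samples entered no comparison. Per the submitters' processing notes, Bowtie, Bowtie2, SICER and MACS2 were used with mm10, without roles or versions (Bowtie and MACS2 for the Chd4 set). In the deposited ChIP lists, island edges fall on multiples of 200 bp, and each island has 1 whole number, used as its signal. What it counts is not stated, and it was scaled here per 1000000 of its sum over the list. The deposited ATAC lists hold only starts and ends, so width was used and depth is unknown.

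Peaks were merged within an assay where they overlapped or touched, over all its libraries. Covered length per gene window was scaled to equal list totals, tested as log2(bp + 200) with limma 3.58.1 (R 4.3.3, trend) over windows with a peak in at least as many libraries as the smallest group, and adjusted by Benjamini-Hochberg at 0.05. The 4 groups of the Smarca4 set shared 1 fit. Tables were made with Python 3.11.15 and pandas 2.3.3. On simulated data, changes of log2 size 1 were recovered at 86% (PU.1), 72.5% (ATAC, Utx), 73.5% and 69% (Smarca4 in Utx WT and KO), 58% (interaction) and 0% (Chd4).

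The genes, lists and motifs were chosen with earlier results of these data known. One listed gene is not reported here and was left out of every list count. The rule for named genes covered all 8 genes in every comparison and the listed genes with most called regions; of these lists only H3K4me1 calls are named, and in the ATAC comparisons genes without a call are given mostly by the range of their values. P-values measure the spread between samples, which may be technical. An exact permutation test could not go below p = 0.333 with 2 libraries against 2, or 0.1 with 3 against 3.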

Additional observations from a re-analysis of the deposited data

How the results depend on the processing

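The H3K4me1 gains were 12 to 17 when a library was left out and 7 in the upper 50% of each list, and the losses 1 to 5 (3 without WT replicate 1 or KO replicate 2, 5 without WT replicate 2) and 7 with windows of 100 kb, a setting chosen after seeing the data. PU.1 gains were 9 to 16 with a library left out (16 without KO replicate 2), 4 with 50% cover and 5 at equal list length, and PU.1 losses 1 to 3, with 2 in the upper 50% and 3 at equal length. ATAC losses in Utx KO were 6 to 9 with a library left out (9 and 8 without WT replicate 1 and 2), 3 in the gene span alone, 2 in the upper 50%, 0 at equal length and 10 at 100 kb. ATAC gains were 1 to 3 (3 without KO replicate 1), 0 in the span, 2 with 50% cover, 2 in the upper 50%, 4 at equal length and 3 at 100 kb. Losses thus outnumbered gains in the main setting but not at equal length, where 5.08% of all regions were lost and 4.87% gained. For the Smarca4 gRNA in Utx WT, losses were 3 to 7 with a library left out (6 or 7 without either empty-vector replicate or gRNA replicate 2), 0 in the span, 1 with 50% cover, 0 in the upper 50% and 0 at equal length. Gains were 1 to 2 (2 without gRNA replicate 1), 0 in the span, with 50% cover and in the upper 50%, 2 at equal length and 3 at 100 kb. In Utx KO, losses were 2 to 7 (5 without empty-vector replicate 1, 7 without gRNA replicate 1), 0 in the span, 1 at equal length and 6 at 100 kb, and gains 0 to 1. For the Chd4 gRNA, losses were 7 to 14 (14 without empty-vector replicate 2, 10 without gRNA replicate 1), 2 in the span, 2 at equal length and 12 at 100 kb, and gains 0 to 1, with 3 at equal length. A library left out eases the all-or-none rule by construction.

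The limma calls among the 8 genes were 0 to 0 with a library left out both for PU.1 and for ATAC in the Utx comparison, and each such fit had fewer samples. For PU.1 the count was 0 without scaling (132 windows higher and 58 lower, against 980 and 830), and within gene spans the gene called was Il7r and not Bank1. For ATAC in Utx KO it was 0 within gene spans, and without scaling 49 windows were higher and 1690 lower, against 318 and 548 (median log2 difference -0.26, against 0.05 scaled). For the Smarca4 gRNA in Utx KO it was 0 to 1, with Il7r called without gRNA replicate 1. For the Chd4 gRNA it was 0 to 4, with Ebf1, Pax5, Blk and Cd22 called without gRNA replicate 1, and 2 (Blk and Cd22) without scaling, where 3 windows were higher and 1251 lower. The cause was not tested. Samples with the same replicate number were not shown to be paired: their deviations correlated at 0.03, -0.003 and -0.06 for PU.1, 0.09 for H3K4me1, 0.13 and 0.06 for the Smarca4 gRNA and empty vector in Utx WT and KO, -0.004 for Utx WT and KO with empty vector, and 0.21 for the Chd4 set, the highest; the labels do not say what a shared number marks. A fit with a replicate block kept 1 call for PU.1 (Bank1, limma adjusted p = 0.0496) and 1 for ATAC in Utx KO (Blnk, limma adjusted p = 0.0436), and 0 elsewhere. The pseudocount and the filter changed no count of calls. ATAC depth is unknown, so a missing peak does not show closed chromatin.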
